A study of Drosophila melanogaster with 6 samples.

Results

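The genes of the sarcomere, the contractile unit of striated muscle, were measured in whole lymph glands of Drosophila melanogaster larvae together with their partners in calcium handling, energy buffering and transcription. The 36 genes were chosen by name as muscle actins, myosins, troponins, Z-disc and calcium-release genes of larval and adult type, by a rule that uses no measured value although earlier results of these data were known, and all 36 were matched among the 17807 genes of the tables. One of them, Unc-89, is listed under the newer symbol Obsc. All 6 libraries came from wild-type larvae in the third instar, on the background BL-30140 crossed to w1118, grown at 25 °C on semi-defined medium, and no treated or mutant group was included. One experimenter made 3 of the libraries, called set A, and another made the other 3, called set B. The series describes them as biological replicates, and the number of glands in a library is not given in the sources used here.

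A sarcomere slides thick filaments of myosin along thin filaments of actin. Tropomyosin and troponin block the thin filament until calcium, released from the sarcoplasmic reticulum through the ryanodine receptor, binds troponin C, and the calcium pump SERCA then returns it to the store. Z-discs anchor the thin filaments, and giant elastic proteins of the titin family link them to the thick filaments. The lymph gland itself is a blood-forming organ with no known contractile role, but its lobes lie along the dorsal vessel, the tubular heart, whose wall is striated muscle.

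Total expected counts were between 18689689 and 26003822 per library. The 9 blood cell markers examined (Tep4, He, srp, Hml, Pxn, NimC1, eater, PPO1 and PPO2) reached 1 TPM or more in each of the 6 libraries, with a summed level of 16207 to 25082 TPM. TPM, the relative number of transcripts, corrects for transcript length, so levels of different genes can be compared. The 8 ring gland genes summed to 1075 to 3219 TPM and the 14 heart and pericardial genes to 227 to 376 TPM over the 6 libraries. Marker lists of salivary gland, fat body, neural and glial cells and trachea were high in 1 or a few libraries. The 6 salivary gland genes summed to 5332 TPM in set B replicate 2 and to at most 83.1 TPM elsewhere, and the 5 fat body genes to 687 TPM in set A replicate 3 and at most 19.4 TPM elsewhere. The 5 neural and glial genes summed to 24.8 TPM in set B replicate 1 and at most 4.62 TPM elsewhere, and the 5 tracheal genes to 67.1 TPM in set B replicate 2, 35.9 TPM in set A replicate 1 and at most 9.81 TPM elsewhere.

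Most muscle genes were present in every gland library, over a wide range of levels. TPM was at least 1 in all 6 libraries for 29 of the 36, against 41.4% of all genes in the tables. TpnC25D and RyR reached that level in some libraries, and 5 stayed below it in all. Mean TPM was at least 100 for 6 genes, between 10 and 100 for 17, and between 1 and 10 for 8. The mean exceeded that of 98.0% of all genes in the tables for Act57B, the highest. For RyR, the lowest with a mean of at least 1, it exceeded that of 55.8%. The summed TPM of the 36 genes was 1132, 1379 and 1238 in replicates 1, 2 and 3 of set A and 1496, 2148 and 3658 in those of set B. Set B replicate 3 was thus the highest, set B replicate 2 the second, and no set B library fell as low as any of set A. In a bulk library, more cells of a type cannot be told apart from more RNA per cell.

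**Figure D1:**
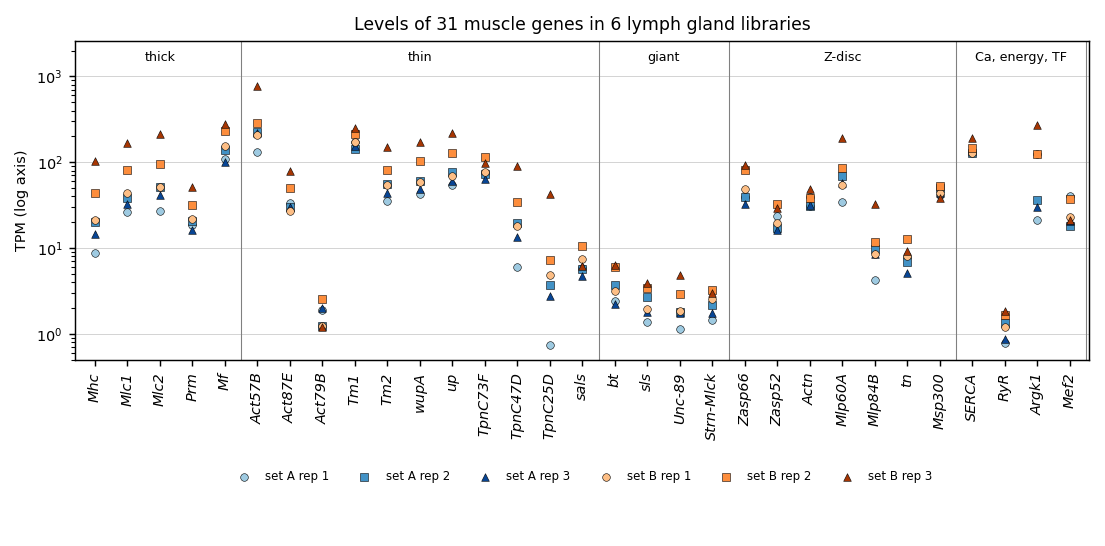
TPM (log axis) of the 31 muscle genes with mean TPM of at least 1, ordered by role, with 1 point per library. Set B replicate 3 (dark triangles) lies above the other libraries for 23 genes. Set B replicate 2 is highest for 7, among them TpnC73F, sals, Act79B and Msp300, and set A replicate 1 for Mef2.

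The thick filament genes spread widely between libraries. Mhc, the only muscle myosin heavy chain gene of the fly (2L at 16766566 to 16788766), was at 8.86, 20.3 and 14.5 TPM in set A and 21.0, 43.5 and 103 TPM in set B. It rested on 1316 to 14835 counts, so counting error is small beside that spread. Its highest library was 11.7-fold above its lowest.

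Both muscle myosin light chain genes kept the same order of libraries at their top. Mlc2, the regulatory light chain, was at 26.7, 50.8 and 41.0 TPM in set A and 51.3, 94.3 and 215 TPM in set B. Mlc1, the essential light chain, was at 26.1, 38.3 and 32.5 TPM in set A and 43.2, 81.2 and 166 TPM in set B. The ratio of Mlc2 to Mlc1 stayed between 1.02 and 1.33, although Mlc2 varied 8.03-fold and Mlc1 6.37-fold between libraries.

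Genes of the thick filament core and backbone were steadier. Mf, which encodes myofilin, was the highest thick filament gene, at 110, 139 and 101 TPM in set A and 153, 232 and 281 TPM in set B. Prm, which encodes paramyosin and miniparamyosin, was at 18.5, 20.7 and 16.3 TPM in set A and 21.5, 31.6 and 51.6 TPM in set B. Every set B library lay above every set A library for both genes. The ratio of Mf to Mhc ranged from 2.72 in set B replicate 3 to 12.4 in set A replicate 1. Flightin (fln), a thick filament protein of the indirect flight muscle, had 2 counts in set B replicate 1 and 0 in each of the others, where 0 counts allow at most 0.138 to 0.192 TPM.

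The actins of the thin filament fell into widely separated levels. Act57B, a main actin of larval muscle (2R at 20944021 to 20946431), was the highest of the 36 genes. It was at 132, 223 and 217 TPM in set A and 208, 286 and 781 TPM in set B. Set B replicate 3 stood far above the other libraries, while set B replicate 1 lay within the range of set A.

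Act87E, the other larval muscle actin, was at 33.3, 30.4 and 30.1 TPM in set A and 26.7, 50.4 and 79.9 TPM in set B, so its lowest value was also in set B. Act79B, an actin of adult tubular muscle, was at 1.90, 1.23 and 2.02 TPM in set A and 1.23, 2.54 and 1.20 TPM in set B. Its library order differed from that of the larval actins, and set B replicate 3 was its lowest. Act88F, the actin of the indirect flight muscle, had at most 2 counts in any library and at most 0.06 TPM. RSEM left little doubt between these similar genes, since the posterior standard deviation was at most 0.0651% of the count for any of the 36 genes.

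The cytoplasmic actins had another order of libraries. Act5C was at 4728 TPM in set A replicate 1, where Act57B was lowest, and at 2551 TPM in set B replicate 3, where Act57B was highest. Act42A, the other cytoplasmic actin, was at 4137 and 2467 TPM in the same libraries. The other counterparts of muscle proteins, zip (non-muscle myosin heavy chain), sqh and Mlc-c (its light chains), were also highest in set A replicate 1.

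**Figure D2:**
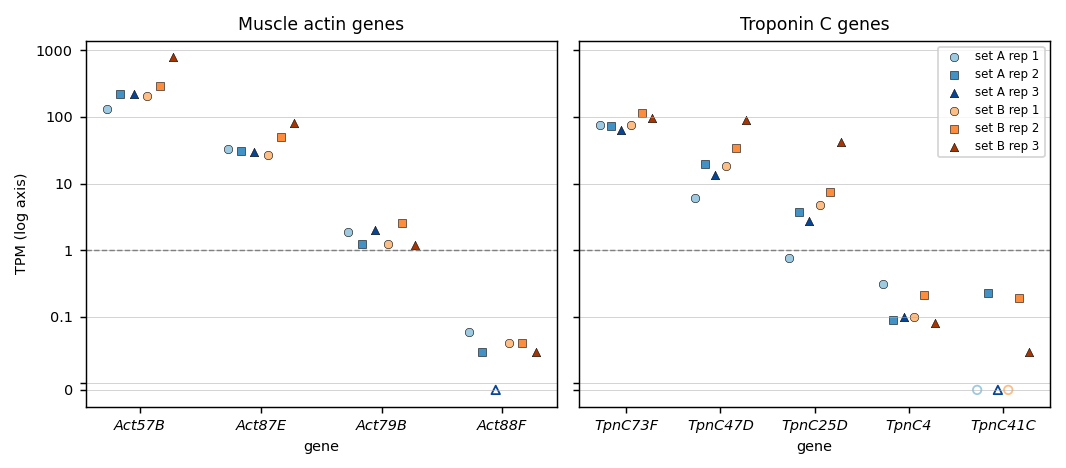
TPM (log axis) of the 4 muscle actin genes and the 5 troponin C genes in each library, with open symbols for values of 0 and a dashed line at TPM of 1. TpnC25D lies below the line only in set A replicate 1, and Act88F, TpnC4 and TpnC41C lie below it in every library.

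Troponin C, the calcium sensor of the thin filament, is encoded by 5 genes of different muscle types. TpnC73F was the highest, at 74.7, 72.2 and 64.3 TPM in set A and 76.6, 114 and 96.7 TPM in set B. It was the steadiest of the troponin C genes, with a coefficient of variation of 22.5%. Its highest library was set B replicate 2.

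TpnC47D, used in larval and some adult muscle, was at 6.06, 19.7 and 13.6 TPM in set A and 18.3, 34.2 and 91.2 TPM in set B. TpnC25D was at 0.75, 3.68 and 2.74 TPM in set A and 4.83, 7.34 and 42.1 TPM in set B. It had the widest range of the 31 genes with mean TPM of at least 1, 56.1-fold between set A replicate 1 and set B replicate 3, on 9 to 435 counts. TpnC25D has exons that overlap the gene tkv on the opposite strand, so part of its counts is uncertain. The ratio of TpnC73F to TpnC47D fell from 12.3 in set A replicate 1 to 1.06 in set B replicate 3, so the mix of troponin C transcripts differed between libraries as well as the amount. TpnC4, the isoform of the indirect flight muscle, had 1 to 4 counts per library, and TpnC41C, another mainly adult isoform, had 0 to 3.

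The other thin filament regulators moved together. Troponin I (wupA) was at 42.2, 60.3 and 49.3 TPM in set A and 58.1, 104 and 174 TPM in set B. Troponin T (up) was at 54.3, 76.7 and 59.9 TPM in set A and 69.6, 129 and 220.3 TPM in set B. The ratio of up to wupA was between 1.20 and 1.29 in all 6 libraries, the narrowest of the 13 ratios between muscle genes that were computed, which were chosen after the levels were seen.

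The tropomyosin genes differed from each other. Tm2, the gene with mainly muscle products, was at 35.1, 55.0 and 43.7 TPM in set A and 54.5, 80.7 and 150 TPM in set B. Tm1, which also makes cytoplasmic tropomyosins, was at 172, 144 and 155 TPM in set A and 171, 210 and 249 TPM in set B. Tm1 was thus higher and much steadier, and its ratio to Tm2 went from 4.90 in set A replicate 1 to 1.66 in set B replicate 3. The gene sals, which promotes thin filament lengthening, was at 4.66 to 10.5 TPM with its highest value in set B replicate 2. Exons of Act87E, Tm1 and sals overlap genes on the opposite strand, which leaves part of their counts uncertain.

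Transcripts of the giant protein genes were at low TPM. The twitchin-like projectin gene bt was at 2.40, 3.72 and 2.23 TPM in set A and 3.13, 6.02 and 6.34 TPM in set B. Because its annotated transcripts are 25818 to 27666 nt long, this level rested on 1029 to 3773 counts. The titin-like gene sls was at 1.39 to 3.90 TPM, the M-line gene Unc-89 at 1.15 to 4.90 TPM and the myosin light chain kinase-like gene Strn-Mlck at 1.44 to 3.26 TPM. The highest library was set B replicate 3 for bt, sls and Unc-89 and set B replicate 2 for Strn-Mlck. Exons of sls and Strn-Mlck overlap genes on the opposite strand.

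Z-disc genes included both wide and narrow ranges. Mlp60A, one of a pair of muscle LIM protein genes, was at 33.9, 68.7 and 57.5 TPM in set A and 54.1, 84.6 and 193 TPM in set B. Mlp84B, the other, was at 4.27, 9.64 and 8.46 TPM in set A and 8.60, 11.9 and 32.9 TPM in set B. Both were highest in set B replicate 3 and lowest in set A replicate 1, and the sets overlapped.

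The Zasp proteins are PDZ domain proteins of the Z-disc. Zasp66 was at 39.7, 39.5 and 32.6 TPM in set A and 49.2, 80.2 and 92.3 TPM in set B, without overlap. Zasp52, which also acts at integrin adhesions outside muscle, was at 23.7, 17.1 and 16.1 TPM in set A and 19.8, 32.7 and 29.5 TPM in set B, with overlap. Zasp67, another gene of the family, had 2 counts in set B replicate 1 and 0 elsewhere.

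The remaining genes of this role were Actn, tn and Msp300. Actn, the actin crosslinker alpha-actinin, was at 30.8, 30.9 and 31.4 TPM in set A and 39.2, 38.8 and 48.4 TPM in set B. Its values were tight within set A and all below set B, although its exons overlap those of other genes on both strands. The TRIM-family gene tn (thin) was at 5.18 to 12.8 TPM. Msp300, a nesprin that links nuclei to the cytoskeleton, was at 38.6 to 52.4 TPM with a coefficient of variation of 11.5%, the lowest of the 31 genes, and set B replicate 3 was its lowest library.

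Of the calcium, energy and transcription genes, SERCA, RyR and Argk1 were highest in set B replicate 3 and Mef2 in set A replicate 1. SERCA was at 133, 129 and 136 TPM in set A and 127, 145 and 193 TPM in set B. Its lowest value was also in set B, and its exons overlap CG2812 on the opposite strand. The ryanodine receptor gene RyR was at 0.79 to 1.84 TPM, far below SERCA on the same per-length scale.

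Mef2, the transcription factor that drives many of these genes in muscle and is also expressed outside it, was at 40.8, 18.3 and 20.5 TPM in set A and 22.8, 36.8 and 21.3 TPM in set B. It was highest in set A replicate 1, where most of the structural genes were lowest. Argk1 encodes arginine kinase, the invertebrate counterpart of creatine kinase, and was at 21.4, 35.9 and 29.8 TPM in set A and 125, 124 and 270.4 TPM in set B. The sets were clearly separate, since the lowest set B library was 3.44-fold above the highest set A library.

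The members were next compared across libraries as a group. Among the 31 genes with mean TPM of at least 1, 23 were highest in set B replicate 3 and 7 in set B replicate 2, against 10.6% and 16.4% of the 8095 genes at that level. The exception was Mef2, highest in set A replicate 1. For 25 of the 31 genes these were the highest pair of libraries, against 3.87% of all genes. The lowest library was set A replicate 1 for 17 genes, set A replicate 3 for 8, and another for 6. Of all 8095 genes, 23.1% were lowest in set A replicate 1 and 11.4% in set A replicate 3. The order did not rest on set B replicate 3 alone, since 28 of the 31 genes were highest in set B replicate 2 once that library was left out, against 18.2% of all genes.

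Relative to each gene's own median library, the median log2 level of the 31 genes was -0.49, -0.05 and -0.33 in set A and -0.0025, 0.66 and 1.05 in set B. Over all 8095 genes the same values lay between -0.05 and 0.03. The muscle genes of set B replicate 1 were therefore at their median, near set A replicate 2, and not near the other set B libraries.

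**Figure D3:**
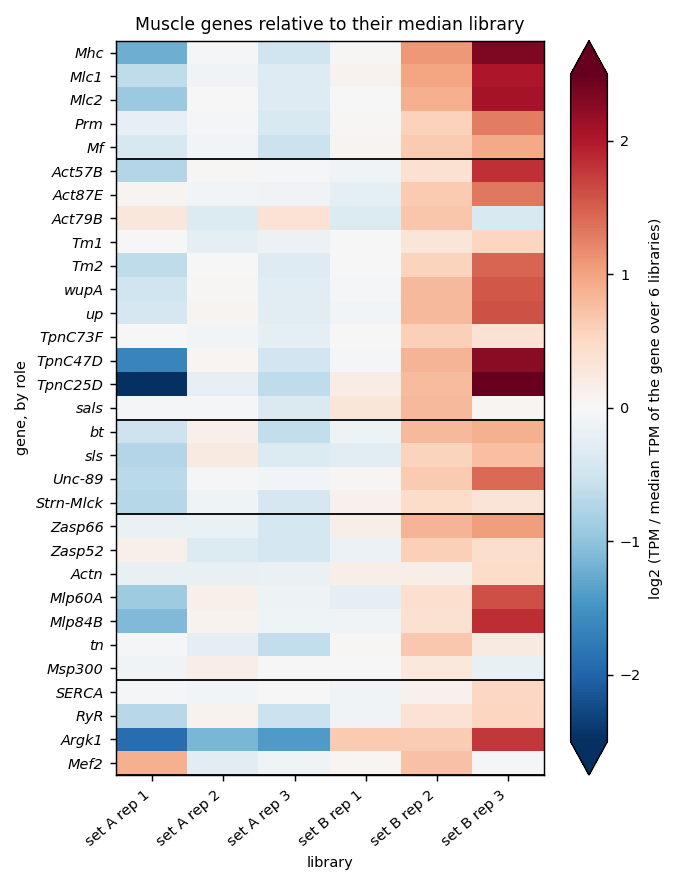
Log2 ratio of TPM to the median TPM of the same gene over 6 libraries, for 31 muscle genes (rows, by role, separated by black lines) and 6 libraries (columns). Red columns for set B replicates 2 and 3 run through most roles, and Act79B, Msp300 and Mef2 depart from this in set B replicate 3 only. In set B replicate 3 sals is near its median.

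The spread differed between genes with and without a well-known use outside muscle. The median coefficient of variation was 53.3% for the 24 genes without such a use and 21.4% for the 7 with it (Tm1, Zasp52, Actn, SERCA, Msp300, Argk1 and Mef2), against 10.9% over all 8095 genes. Argk1 was the exception among the 7, at 94.3%. A coefficient above 50% was found for 13 of the 31 genes, against 9.5% of all genes. Without set B replicate 3 it was found for 4 of the 31, against 9.83% of all genes. The medians were then 34.1% and 14.7%, against 11.1% over all genes.

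Other cell type markers moved with these libraries in part. Set B replicate 2 also had the highest salivary gland, tracheal and visceral muscle sums, and 5 of 9 heart and pericardial genes with mean TPM of at least 1 were highest there. The 14 heart and pericardial genes summed to 376 TPM in set B replicate 2, 328 TPM in set B replicate 3 and 227 to 338 TPM elsewhere. Of that list, 9 genes, among them Hand, tin, mid and H15, reached 1 TPM in each library. The gene svp fell below 1 in some, and prc, Doc1, Doc2 and Doc3 were below it in all 6. In set B replicate 3, where the muscle genes were highest, Hand was at 126 TPM and tin at 1.52 TPM. There mid was at 4.51 TPM and H15 at 4.25 TPM, its lowest value, while Klf15, at 2.38 TPM, was the 1 gene of the 9 highest there. Of the 3 visceral muscle genes, bap was at 1.89 TPM and Fas3 at 15.9 TPM there, and bin was at 0 in every library. The 8 ring gland genes summed to 3219 TPM in set A replicate 1, 3057 TPM in set B replicate 2 and 1983 TPM in set B replicate 3. The part of other tissues in the levels of the muscle genes was not tested.

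The sets were compared to measure what goes with the experimenter, which cannot be told apart from any batch of dissection or library preparation. The set A tables also carry the name Hmlgfp and the set B tables the name WT, while the labels give both sets the same background and genotype, so a difference in stock cannot be told apart from the experimenter either. With the quasi-likelihood test of edgeR on the whole table, 0 of the 31 muscle genes tested and 0% of the 8491 genes tested had an adjusted p under 0.05. At an unadjusted p under 0.05, 19 of the 31 were higher in set B, against 3.31% of all genes. The log2 change was above 0 for 29 of the 31 genes, against 48.4% of all genes, and above 1 for 12, against 4.35%. The median was 0.92 for the muscle genes and -0.0045 for all genes tested. Without set B replicate 3 the median of the muscle genes was 0.52. These genes share the same 6 libraries, so their counts are not independent.

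All values of set B exceeded all values of set A for 14 of the 31 genes, against 4.16% of all genes, and below them for 0, against 1.63%. The 14 genes were Mhc, Mlc1, Mlc2, Prm, Mf, TpnC73F, TpnC25D, sals, Unc-89, Strn-Mlck, Zasp66, Actn, tn and Argk1. For 13 of them the gap between the sets was narrow, at most 1.31-fold. Leaving out set B replicate 1 raised the number to 28, against 6.58% of all genes, and leaving out set A replicate 2 raised it to 22, against 5.68%.

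**Figure D4:**
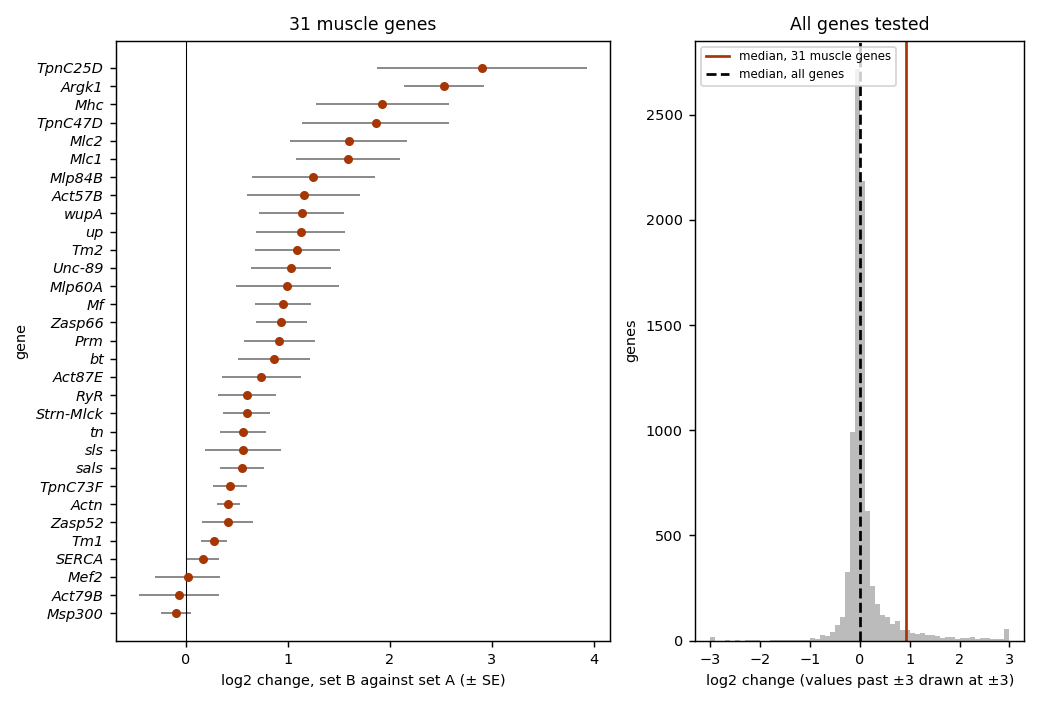
Left, edgeR log2 change of set B against set A with its standard error for the 31 muscle genes tested. Right, the distribution of the same change over all 8491 genes, with both medians marked, 0.92 for the muscle genes and -0.0045 for all genes.

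Argk1 had the clearest difference between sets. Its mean level was 29.0 ± 7.32 TPM in set A and 173 ± 84.3 TPM in set B (SD, n = 3 each). The edgeR log2 change was 2.53 (SE 0.39), with an unadjusted p of 0.000613, the second smallest of all genes, and an edgeR adjusted p of 0.9997. DESeq2, run on the same counts, gave a log2 change of 2.53 and an adjusted p of 1.44e-08, and Argk1 was the only muscle gene it called, against 0.237% of genes called higher in set B. The ratio of Argk1 to Mhc was 5.98 in set B replicate 1 and between 1.77 and 2.84 in the other libraries, so Argk1 was high there relative to Mhc. The neural and glial markers were also highest in that library, and their part in the Argk1 level was not tested.

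No structural gene passed the adjusted threshold between sets, although several had no overlap between the sets. The edgeR log2 change was 2.90 (SE 1.03) for TpnC25D, 1.93 (SE 0.65) for Mhc, 1.86 (SE 0.72) for TpnC47D and 1.59 (SE 0.57) for Mlc2, each with an edgeR adjusted p of 0.9997. Without set B replicate 3 these changes were 1.27, 1.08, 0.95 and 0.82. Act57B had a change of 1.15 (SE 0.55), which was 0.32 without that library. Changes were small for Actn, at 0.42 (SE 0.11), Tm1, at 0.28 (SE 0.13), and SERCA, at 0.16 (SE 0.16). Values near 0 were found for Mef2, at 0.02 (SE 0.32), Act79B, at -0.07 (SE 0.39), and Msp300, at -0.10 (SE 0.14), and no direction is given for these or for SERCA because it changed when single libraries were left out.

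The tables also hold a mean transcript length per gene and library, which RSEM weights by the estimated abundance of each transcript. It therefore shifts when a library uses a different mix of transcripts. Tm1, with annotated transcripts of 752 to 3054 nt, averaged 2069.5, 1974 and 2018 nt in set A and 1964, 1933 and 1738 nt in set B. Its mean was shortest in the library with the most Tm1 and the most muscle transcripts. A change as large as that of Tm1 between its longest and shortest library, 19.1%, was found for 2.66% of the 4546 genes with several transcripts and a varying length.

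The same order, longest in set A replicate 1 and shortest in set B replicate 3, was found for SERCA (4623 to 4345 nt), Zasp52 (3871 to 3066 nt) and Zasp66 (1347 to 1284 nt). It thus held for 4 of the 29 muscle genes with mean TPM of at least 1, several transcripts and a varying length. Among the 4546 genes named above the share was 3.08%. Shortest in set B replicate 3 were 9 of the 29, against 12.9% of the 4546. For Mhc, whose transcripts are of similar length, the mean changed by 0.468%. Transcript levels themselves were not used here.

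**Figure D5:**
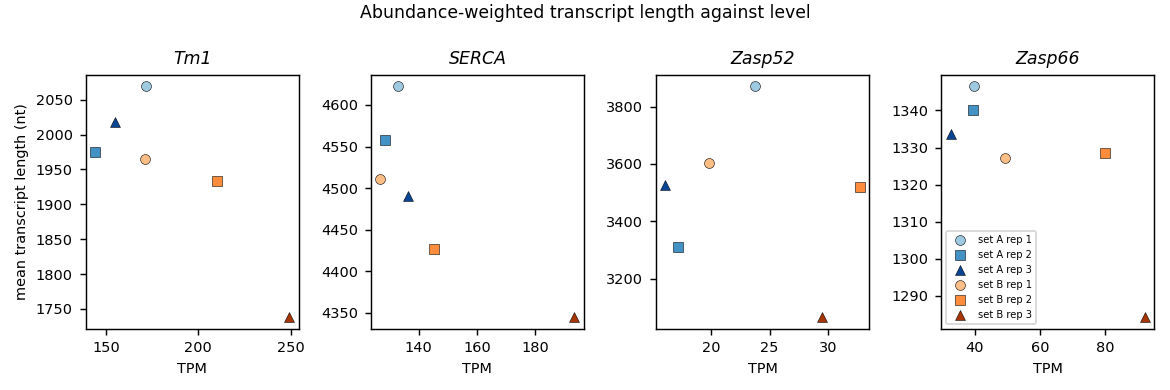
Abundance-weighted mean transcript length (nt) against TPM for Tm1, SERCA, Zasp52 and Zasp66, with 1 point per library. Each gene has its shortest mean length in set B replicate 3 (dark triangle) and its longest in set A replicate 1 (light circle).

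Other muscle genes were examined as lists. Of 11 further sarcomere and actin-regulating genes, all reached 1 TPM in each library, and 5 of 11 had a log2 change above 0 between sets, against 48.4% of all genes. Mp20, a calponin-like muscle protein gene, was highest in set B replicate 3, at 215 TPM against 72.3 to 106 TPM elsewhere. The small heat shock protein gene l(2)efl was at 50.3 and 60.3 TPM in set B replicates 2 and 3 and at 10.5 to 14.6 TPM elsewhere, though its exons overlap the gene St3 on the other strand. Chd64, the highest gene of the list, was at 514 to 1216 TPM and highest in set A replicate 3. The list is mixed, since most of its genes act on actin in many cell types.

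Of 16 genes of excitation and the neuromuscular junction, 11 were found in every library, and 14 of the 15 tested had a log2 change above 0, against 48.4% of all genes, with a median of 0.49 and 0 called by edgeR. SclB, which encodes a small regulator of SERCA, was the highest at 126, 174 and 125 TPM in set A and 203, 326 and 234 TPM in set B. SclA, the other member of that pair, was at 2.96 to 22.3 TPM and highest in set B replicate 3. All 5 muscle glutamate receptor subunit genes (GluRIIA to GluRIIE) had a mean TPM of at least 1, with values between 0.65 and 8.37 TPM.

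Of 13 genes of myoblast identity and fusion, 5 were found in every library and 3 stayed below TPM of 1 in all. A log2 change above 0 between sets was found for 9 of the 10 tested, against 48.4% of all genes, with a median of 0.30. The muscle identity factor nau and the fusion regulator lmd were at most at 0.10 and 0.03 TPM. The highest gene of the list, how, was at 41.6 to 67.0 TPM and encodes an RNA-binding protein used in many tissues. No gene of these lists had an edgeR adjusted p under 0.05 between sets, and those with an unadjusted p under 0.05 numbered 2 of 11, 3 of 15 and 1 of 10 tested in the sarcomere, excitation and fusion lists, against 4.16% of all genes.

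Genes outside the list were ranked by how closely their level followed the muscle genes over the 6 libraries. The measure was Pearson's r of log2(TPM + 1) with the mean standardised profile of the 31 genes, among 737 genes with mean TPM of at least 5 and at least a 2-fold range. Of the 31 muscle genes, which themselves make up the profile, 17 had r above 0.9, and Act79B, Msp300 and Mef2 were below 0.1. Among the 737 genes, which include 20 of the muscle genes, 38 had r above 0.9, and 12 of these were muscle genes. The closest of the other genes was fau, with r of 0.99, at 33.5, 39.3 and 34.0 TPM in set A and 40.6, 74.6 and 80.2 TPM in set B. The next were CG45076, CG5023, CG5177, CG9297, Rbp9, mt:CoII, CG8888, Lmpt and jp, with r from 0.99 to 0.94. Among them jp encodes junctophilin, which tethers the calcium store to the cell membrane, Lmpt a LIM domain protein, and mt:CoII a subunit of cytochrome oxidase. With only 6 libraries and 737 genes these values describe likeness in this sample of libraries.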

How the data were processed

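RNA-seq of polyadenylated RNA was analysed from 6 libraries, prepared with column-purified RNA and a stranded poly(A) kit per the labels. Per the submitters' processing notes, the tools were CASAVA 1.8.2, Trimmomatic 0.35, STAR 2.7.1a and RSEM 1.2.28 with build BDGP6. The annotation release and the use of strand in counting are not given in the sources used here. Exon overlaps on the opposite strand are therefore named for the muscle genes with mean TPM of at least 1. Other genes, among them fln, He, Pxn, CG5177 and Rbp9, also have such overlaps, which are not named beside their values.

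The authors' RSEM tables hold deposited expected counts, which estimate the fragments from each gene and are not normalized. They also hold deposited TPM, which is scaled by effective transcript length to the same sum per library. Positions are those of Ensembl release 115 on BDGP6.

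Expected counts were rounded and tested with edgeR 4.0.16 in R 4.3.3 (default expression filter, TMM, Benjamini-Hochberg adjustment over 8491 genes), with DESeq2 1.42.0, other normalization, no filter, a replicate block and each library left out as alternatives. The fit was also run on counts simulated from the means, dispersions and library sizes of these data, with an outcome not reported here. Same-numbered libraries had deviations correlated at -0.22, -0.38 and 0.39, so numbers do not pair libraries. All pairs of libraries differed by more than sampling noise (chi-square per degree of freedom at least 20.1). Limits from 0 counts use 3 counts and cover counting error only. The genes named followed a written rule: all 36 members by role, 5 cytoplasmic counterparts, the highest gene of each list and up to 10 genes of similar profile. Other non-member genes, the ratios and the genes shown for transcript length were named after their values were seen. Members and lists were chosen with earlier results of these data known. Python 3.11.15 was used for tables.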

Additional observations from a re-analysis of the deposited data

Results flagged for a closer look

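A library stood apart from the other 5 for 9 of 39 values examined (31 genes and 8 sums), the distance to the closest library being above Dixon's 95% critical share of the range. For normally distributed values chance flags about 1 in 20 such groups, 1.95 of 39. The shares were taken on TPM without a log transformation, so that rate may not hold here. These values are also not independent because the genes share libraries. The library was set B replicate 3 in each case. Its level was 781 TPM for Act57B against 132 to 286 TPM in the others, 42.1 TPM for TpnC25D against 0.75 to 7.34 TPM, and 91.2 TPM for TpnC47D against 6.06 to 34.2 TPM. It was 103 TPM for Mhc against 8.86 to 43.5 TPM and 215 TPM for Mlc2 against 26.7 to 94.3 TPM. The Z-disc LIM protein genes were at 193 TPM for Mlp60A against 33.9 to 84.6 TPM and at 32.9 TPM for Mlp84B against 4.27 to 11.9 TPM. SERCA was at 193 TPM against 127 to 145 TPM, and the summed thin filament genes were at 1892 TPM against 558 to 1029 TPM.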

How the results depend on the processing

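Of 178 values recomputed under alternatives, 162 kept their direction and side of the threshold or stayed close to the reported value. DESeq2 called 22 genes in the whole table and 1 muscle gene, against 0 and 0 with edgeR. Other normalization, no filter on low counts, the replicate block and leaving out single libraries all gave 0 calls in both. With the replicate block the log2 change of Argk1 was 2.47, with an edgeR adjusted p of 0.889, and the block changed no call. Leaving out set B replicate 1 made 28 muscle genes higher in all set B libraries, the highest of a range from 14, which includes 22 without set A replicate 2. Leaving out libraries gave 4 to 15 genes with a coefficient of variation above 50%, and 28 genes highest in set B replicate 2 without set B replicate 3. The ratio of set B replicate 3 to the median of the others, for the summed muscle genes, was 2.65 in TPM and 1.84 as a share of expected counts, where long transcripts weigh more. Directions changed for genes near 0. Mef2 was at -0.15 without set A replicate 2, -0.13 without set A replicate 3 and -0.23 without set B replicate 2. Without single libraries Mef2 ranged from -0.23 to 0.396, Act79B from -0.507 to 0.116, Msp300 from -0.21 to 0.0283 and SERCA from -0.0469 to 0.289. Act79B was above 0 at 0.043 without set A replicate 3, at 0.116 without set B replicate 1, and at 0.091 without set B replicate 3. Msp300 changed sign without set A replicate 2 and SERCA without set B replicate 3. The reported changes of these genes were smaller than their standard errors, and the cause was not tested.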
